A study of Mus musculus with 4 samples.

Results

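The D-type cyclins (Ccnd1, Ccnd2 and Ccnd3), their partner kinases (Cdk4 and Cdk6) and the cyclin-dependent kinase (CDK) inhibitors of the CIP/KIP family (Cdkn1a, Cdkn1b and Cdkn1c) and the INK4 family (Cdkn2a and Cdkn2c) form a group of 10 genes that sets the passage of a cell through the G1 phase. Binding of the transcription factor RUNX1 and the histone mark H3K27me3 were examined at these genes in mouse hematopoietic progenitors by chromatin immunoprecipitation followed by sequencing (ChIP-seq). A peak was taken as near a gene when its summit, the position of highest signal, fell inside the gene body of the GENCODE vM21 annotation (mm10) or within 50 kb of it. It was assigned to the gene when an annotated transcript start of that gene was the nearest start of any gene. By this rule 51 of the 24972 merged RUNX1 sites lay near the 10 genes and 22 of them were assigned to one of the genes. The 10 windows covered 1.37 Mb.

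The cells were mouse embryonic stem cells carrying a doxycycline (DOX) inducible dominant-negative FOS, dnFOS, a form of FOS that pairs with JUN proteins and keeps the AP-1 complex off DNA. The cells had been differentiated in culture and floating progenitors were harvested on day 2 per the labels. All 4 libraries came from cells carrying the transgene, 2 of them made with an antibody to RUNX1 and 2 labelled as H3K27me3, with 1 library of each antibody from cells given DOX and 1 from cells without DOX. There was therefore 1 library per condition, no replicate and no test, and every difference between libraries below is a description of those libraries. The peak lists give no read totals, so that depth is unknown, and they hold no expression values against which the identity of the cells could be set.

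The labels of the libraries go against other names deposited with them. The sample whose title and treatment give DOX holds a RUNX1 peak list with a run name that reads untreated, and the other RUNX1 sample shows the opposite. They are named here by their labels, labelled +DOX and labelled -DOX, and each direction between them turns around if the 2 lists are exchanged. For H3K27me3 the titles and the treatment fields of the samples disagree with each other, and the extraction protocol names a RUNX1 antibody for these samples as well. These libraries are called the library titled untreated and the library titled DOX, and no effect of DOX is drawn from them.

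RUNX1 is the transcription factor that drives the formation of blood cells from hemogenic endothelium and it often binds beside ETS, GATA, C/EBP and AP-1 factors. In G1, the D-type cyclins are induced by growth factors and activate CDK4 and CDK6, which phosphorylate the retinoblastoma protein and thereby free the E2F factors that switch on S phase genes. INK4 proteins block CDK4 and CDK6, whereas CIP/KIP proteins bind a wider range of cyclin and CDK complexes. H3K27me3 is deposited by Polycomb repressive complex 2 and marks silenced genes, among them many developmental regulators and the Cdkn2a locus in proliferating cells.

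The deposited lists held 18389 peaks for the library labelled -DOX, 21831 for that labelled +DOX, 6356 for the H3K27me3 library titled untreated and 7233 for that titled DOX. Each peak carries a fold enrichment over the background of the peak caller and a -log10 q. Because the lists differ in length and scale, each peak is also given as a percentile, the percent of peaks of its own list with a lower -log10 q, tied peaks being placed at the middle of their ranks. The position given for a site is the summit of its higher-ranked peak. The sequences at the sites that carry the results are given first, as 200 bp at the summit on the plus strand of mm10, in lower case with matches to the motifs searched in capitals. The motifs were RUNX (TGTGGTT), a shorter RUNX core (TGTGGT or TGCGGT, which overlaps the first), AP-1 (TGACTCA), CRE (TGACGTCA), ETS (CAGGAAG or CCGGAAG, or either word with A as its last letter), PU.1 (GAGGAAGT), GATA factors (AGATAA) and C/EBP (TTGCNNAA), on both strands. On the plus strand the reverse of the RUNX motif therefore reads AACCACA and that of its core ACCACA or ACCGCA.

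The first set shows, for the cyclins and Cdk4, the site assigned to the gene that had the highest percentile, and a further Ccnd3 site that was added after the values were seen because it holds a RUNX match 1 base from a PU.1 match.
Ccnd1 at chr7:144937535-144937734: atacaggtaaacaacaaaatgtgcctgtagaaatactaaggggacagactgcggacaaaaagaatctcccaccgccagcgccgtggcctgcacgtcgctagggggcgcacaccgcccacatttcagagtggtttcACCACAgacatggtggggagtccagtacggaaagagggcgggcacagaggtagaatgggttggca
Ccnd2 at chr6:127155066-127155265: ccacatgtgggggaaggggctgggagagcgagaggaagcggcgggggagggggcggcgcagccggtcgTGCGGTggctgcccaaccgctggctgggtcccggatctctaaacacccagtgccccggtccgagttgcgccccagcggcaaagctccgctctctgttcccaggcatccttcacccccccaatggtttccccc
Ccnd3 at chr17:47595579-47595778: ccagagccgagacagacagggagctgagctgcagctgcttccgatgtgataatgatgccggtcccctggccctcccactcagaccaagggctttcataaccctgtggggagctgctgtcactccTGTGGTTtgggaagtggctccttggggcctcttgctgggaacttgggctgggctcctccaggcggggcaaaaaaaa
Ccnd3 at chr17:47508070-47508269: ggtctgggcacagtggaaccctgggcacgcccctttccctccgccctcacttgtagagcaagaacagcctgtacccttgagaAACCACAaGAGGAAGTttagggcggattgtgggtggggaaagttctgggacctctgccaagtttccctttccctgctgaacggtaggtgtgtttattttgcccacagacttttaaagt
Cdk4 at chr10:127063262-127063461: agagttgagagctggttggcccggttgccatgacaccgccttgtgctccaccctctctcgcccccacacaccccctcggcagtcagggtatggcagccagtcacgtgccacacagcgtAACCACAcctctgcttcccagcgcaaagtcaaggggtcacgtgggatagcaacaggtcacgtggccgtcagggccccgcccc

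The second set shows the inhibitors by the same rule, with a further Cdkn2a site that was added after the values were seen because its letters repeat. The first of them holds a C/EBP match, the next none of the motifs, and the last 9 ETS matches.
Cdkn1a at chr17:29100986-29101185: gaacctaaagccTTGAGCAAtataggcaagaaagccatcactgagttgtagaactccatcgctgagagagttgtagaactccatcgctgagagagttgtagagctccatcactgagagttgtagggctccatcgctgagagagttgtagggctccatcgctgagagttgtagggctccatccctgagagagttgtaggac
Cdkn2a at chr4:89294749-89294948: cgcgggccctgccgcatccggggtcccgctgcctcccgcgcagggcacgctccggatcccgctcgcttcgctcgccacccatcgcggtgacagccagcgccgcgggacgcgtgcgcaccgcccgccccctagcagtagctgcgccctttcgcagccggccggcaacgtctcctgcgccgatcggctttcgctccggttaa
Cdkn2a at chr4:89284966-89285165: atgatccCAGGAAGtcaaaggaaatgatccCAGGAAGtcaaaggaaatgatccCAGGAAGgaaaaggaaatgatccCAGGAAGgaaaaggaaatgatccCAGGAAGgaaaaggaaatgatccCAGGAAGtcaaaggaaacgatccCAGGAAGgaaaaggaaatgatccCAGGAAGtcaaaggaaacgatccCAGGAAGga

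The third set comes from the 6 sites near these genes that were called in 1 RUNX1 list only and had a percentile of at least 50 there. Among them were 2 sites at Faf1, 1 from each list, whose peaks overlapped although their summits were 439 bp apart. The Faf1 promoter thus had a peak in both lists. Of the 6, 4 were in the list labelled +DOX and 2 in that labelled -DOX, the latter at LTO1 near Ccnd1 (fold 6.61, percentile 68.3) and at Faf1 near Cdkn2c (fold 7.16, percentile 81.4). This split was not counted over all RUNX1 sites, and nothing is read from it. All 6 lay nearest to the start of another transcript. The 3 without an overlap with an untranslated region are shown, all of them from the list labelled +DOX. The first holds an AP-1 match and a RUNX core, and the other two hold no match.
Cdk6 at chr5:3301261-3301460: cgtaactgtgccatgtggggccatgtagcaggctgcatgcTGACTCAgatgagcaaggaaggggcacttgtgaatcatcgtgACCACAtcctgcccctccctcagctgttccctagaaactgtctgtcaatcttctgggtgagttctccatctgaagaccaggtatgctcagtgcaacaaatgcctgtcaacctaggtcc
Cdkn1a at chr17:29056709-29056908: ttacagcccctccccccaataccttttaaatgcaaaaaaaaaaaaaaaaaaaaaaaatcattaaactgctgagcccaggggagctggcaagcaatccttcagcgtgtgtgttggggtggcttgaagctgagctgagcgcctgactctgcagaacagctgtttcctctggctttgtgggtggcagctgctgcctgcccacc
Cdkn1b at chr6:134927028-134927227: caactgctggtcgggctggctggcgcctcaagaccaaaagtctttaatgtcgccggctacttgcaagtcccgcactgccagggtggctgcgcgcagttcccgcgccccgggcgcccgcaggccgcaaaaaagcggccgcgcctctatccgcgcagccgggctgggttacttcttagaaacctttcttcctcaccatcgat

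By the same rules the top sites of Cdk6, Cdkn1b and Cdkn2c and the other 3 of these 1-library sites, 1 beside LTO1 and 2 beside Faf1, overlapped annotated untranslated regions, and their sequences are not shown.

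RUNX1 peaks were assigned to 9 of the 10 genes in each RUNX1 library, Cdkn1c being the exception. Over all 21938 protein-coding genes, 44.2% had an assigned peak in the library labelled -DOX and 48.0% in that labelled +DOX. H3K27me3 peaks were assigned to 5 of the 10 genes in the library titled untreated, against 13.3% of protein-coding genes, and to 6 in that titled DOX, against 13.7%. Within 50 kb, H3K27me3 peaks were found at 7 genes in the library titled untreated and 9 in that titled DOX, against 33.2% and 35.3% of protein-coding genes. When a peak of either library was counted, 6 of the 10 genes had both a RUNX1 peak and an H3K27me3 peak assigned. These were Ccnd1, Ccnd2, Ccnd3, Cdk6, Cdkn2a and Cdkn2c, and the same held for 9.63% of protein-coding genes. At Ccnd3, Cdkn2a and Cdkn2c the H3K27me3 peaks were assigned in 1 library only. With 10 genes and no replicate these shares are given as a description.

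**Figure D1:**
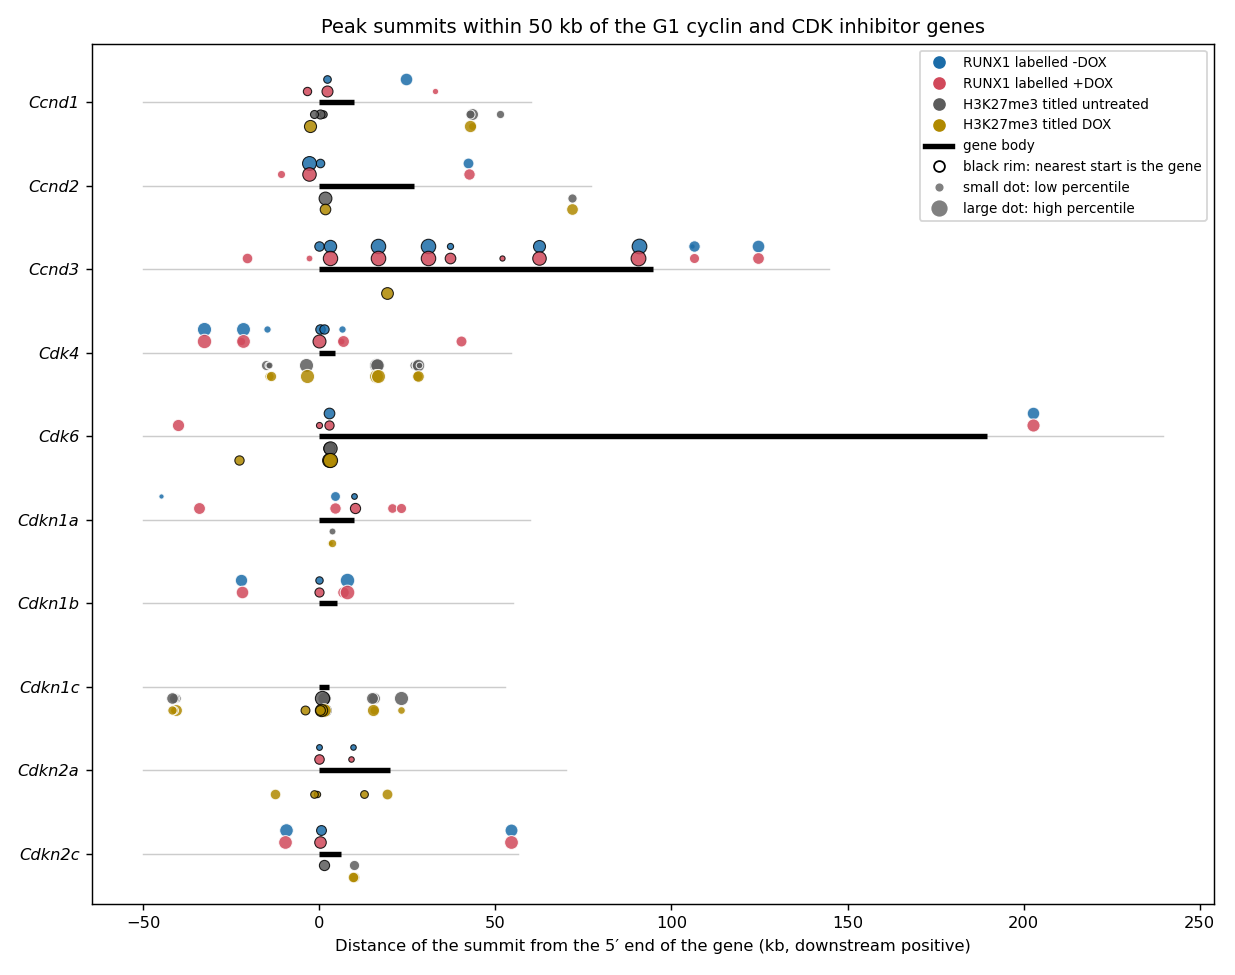
Summits of the 4 peak lists by distance from the 5′ end of each gene in kb, with the gene body as a black bar and the searched window as a grey line. Dot size grows with the percentile of the peak in its own list and a black rim marks assigned peaks. RUNX1 dots lie above each line and H3K27me3 dots below it. Ccnd3 has 13 RUNX1 sites in its window and Cdkn1c has none.

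Among the D-type cyclins, Ccnd3 (chr17:47505051-47599691, plus strand) held the largest number of RUNX1 sites of the 10 genes, with 13 in its window and 8 assigned to it. Of the assigned sites 6 were in both lists, 1 only in the list labelled -DOX and 1 only in that labelled +DOX. Each list assigned 7 peaks to the gene. At least 7 assigned peaks were found for 23 protein-coding genes (0.105%) in the library labelled -DOX and for 46 (0.210%) in that labelled +DOX. The Ccnd3 gene body spans 94.6 kb and has 19 annotated transcript starts, which widens the region over which a summit can be assigned to it.

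The Ccnd3 site of highest rank lay at position 47595679, in an exon of a non-coding Ccnd3 transcript and 389 bp upstream of a start near the 3′ end of the gene. Its fold enrichment was 8.99 in the list labelled -DOX and 9.54 in that labelled +DOX, with percentiles of 97.0 and 98.3. This is the sequence above with TGTGGTT 27 bp to the right of the summit. An intronic pair at 47521725 and 47535920 ranked next, with percentiles of 93.4 and 94.1 for the former and 93.7 and 93.5 for the latter, -DOX before +DOX. Their folds were 9.91 and 10.1 at the former and 10.9 and 12.0 at the latter. All 3 sites thus stood among the upper peaks of both lists and differed by under 2 percentile points between them.

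Other Ccnd3 sites differed more between the lists. At 47508170, in the first part of the gene, the fold was 5.20 in the list labelled -DOX and 9.004 in that labelled +DOX, and the percentile went from 64.4 to 92.1. This window holds AACCACA and GAGGAAGT side by side, at 15 and 6 bp to the left of the summit. At 47542212 the fold was 3.78 and 5.38 and the percentile 6.26 and 44.4, and at 47567435 the fold was 5.82 and 7.68 and the percentile 60.5 and 80.1. At these 3 intronic sites the library labelled +DOX was the higher one. The summit nearest to the 5′ end of the gene, at 47505106 and 13 bp upstream of another annotated start, was called solely in the library labelled -DOX, at percentile 32.2. An intronic site at 47557089 was called solely in the library labelled +DOX, at percentile 0.405, among the weakest peaks of its list. A RUNX core was found in 7 of the 8 assigned Ccnd3 windows, the weak site at 47557089 among them. The exception was 47535920, which holds a C/EBP match. The full RUNX motif was in 3 of the 8 windows. Of all 24972 merged sites, 37.4% held the core and 14.2% the full motif. With 8 windows and no test, these counts are a description only.

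**Figure D2:**
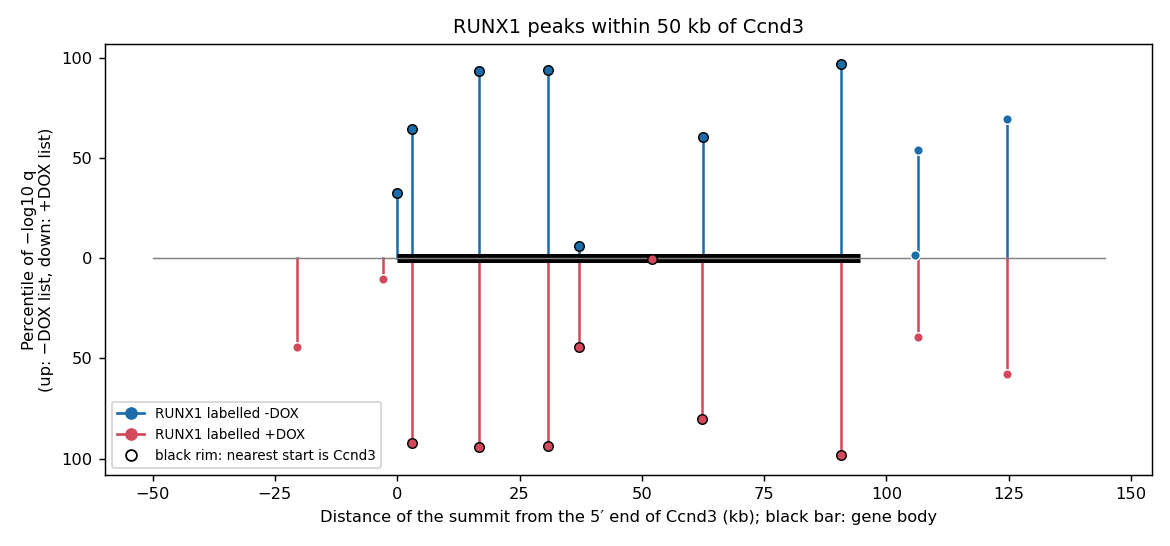
RUNX1 peaks near Ccnd3 by distance from its 5′ end in kb, with the percentile of -log10 q drawn upward for the library labelled -DOX and downward for that labelled +DOX. The black bar is the gene body and black rims mark assigned peaks. Intronic peaks at percentiles above 90 occur in both lists, and the peak near the 5′ end is drawn upward only, at percentile 32.2.

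Ccnd2 (chr6:127125162-127152193, minus strand), a cyclin induced early after growth factor stimulation, had 4 RUNX1 sites near it and 2 assigned. The stronger one lay 2973 bp upstream of the start at 127155166, inside an intron of the antisense transcript 9330179D12Rik. Its fold was 7.60 in the list labelled -DOX and 6.84 in that labelled +DOX, at percentiles 85.7 and 79.8. The other, 128 bp from a Ccnd2 start at 127152065, was called solely in the library labelled -DOX, with a fold of 3.67 at percentile 23.9. Both windows hold a RUNX core. The upstream site was thus of high rank in both lists, while the one at the promoter was in 1 list at low rank. The Ccnd2 body also held an H3K27me3 peak in both libraries, 506 bp from a start and at percentile 70.8 in that titled untreated, 432 bp and at 43.9 in that titled DOX.

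Ccnd1 (chr7:144929931-144939925, minus strand) had 4 RUNX1 sites near it and 2 assigned. The intronic site at 144937635, which holds ACCACA, had a fold of 3.65 in the list labelled -DOX and 4.87 in that labelled +DOX, at percentiles 16.4 and 48.7. A site 3462 bp upstream at 144943387 was called solely in the library labelled +DOX, with a fold of 4.04 at percentile 22.0. In both lists these sites stayed below percentile 50. H3K27me3 at Ccnd1 was called in 3 short peaks in the library titled untreated, at 144938926, 144939668 and 144941471, with percentiles of 14.9, 28.6 and 19.8. The library titled DOX had 1 peak, at 144942443 and percentile 61.4, and none of the 4 peaks overlapped a peak of the other list. At least 3 assigned peaks in the library titled untreated were found for 416 protein-coding genes (1.90%), and at least 1 in that titled DOX for 3015 (13.7%).

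The kinase genes differed from each other in H3K27me3. Cdk4 (chr10:127063534-127067920, plus strand), which lies in a gene-dense region, had 9 RUNX1 sites within 50 kb and 2 assigned, and no H3K27me3 peak was assigned to it in either library. Its promoter site joined a peak of each list whose summits were 370 bp apart. The one labelled -DOX had its summit at 127063732, 116 bp past the start in the untranslated region, with a fold of 3.76 at percentile 32.7. The one labelled +DOX had its summit at 127063362, 172 bp upstream of the start, with a fold of 6.003 at percentile 72.5. The sequence above is taken at the latter and holds AACCACA 21 bp to the right of it. A site 716 bp from a start, in an intron at 127065014, was called solely in the library labelled -DOX, at percentile 31.1 with a fold of 3.59. Between the 2 peaks of the promoter site the percentile differed by 39.8 points, though at separate summits. This was the greatest difference of the 14 assigned sites called in both lists.

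Cdk6 (chr5:3341485-3531008, plus strand), the longest of the 10 genes at 190 kb, had 4 RUNX1 sites near it, and both assigned ones lay close to its starts. The coding exon site at 3344401 had a fold of 4.77 in the list labelled -DOX and 3.98 in that labelled +DOX, at percentiles 44.8 and 30.2. A site 58 bp upstream of the 5′ end at 3341427 was called solely in the library labelled +DOX, at percentile 5.62. In contrast to Ccnd3, no RUNX1 site was assigned to the long introns of Cdk6. H3K27me3 at the start of Cdk6 was called in both libraries at 2 neighbouring positions. At the upstream one the fold was 5.24 in the library titled untreated and 6.81 in that titled DOX, at percentiles 53.5 and 84.6. At the downstream one the fold was 6.50 and 7.61, at percentiles 77.6 and 88.9. Both RUNX1 peaks of the site at 3344401 overlapped the downstream H3K27me3 peak in both H3K27me3 libraries. The wider one, labelled +DOX, overlapped the upstream one as well. This was the only one of the 51 RUNX1 sites with a peak that overlapped an H3K27me3 peak. Over all RUNX1 sites the share was 6.12% for the library titled untreated, 6.44% for that titled DOX and 7.64% for either.

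About 40 kb upstream of Cdk6, at 3301361, a site that belongs by distance to the long non-coding RNA Gm36548 was called solely in the library labelled +DOX, with a fold of 6.69 at percentile 63.6. It is the window above with TGACTCA 57 bp to the left of the summit. The AP-1 motif was present at 3 of the 51 sites (4.97% of all sites) and at none of the 22 assigned ones. The other 2 lay at 127162985 near Ccnd2, which was called solely in the library labelled +DOX at percentile 20.8, and at 29095591 in an intron of Cdkn1a, which was in both lists at percentiles 36.7 and 53.1. With 3 sites, no difference between the lists is read from this.

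Of the CIP/KIP inhibitors, Cdkn1a and Cdkn1b had RUNX1 peaks and no assigned H3K27me3 peak, and Cdkn1c showed the opposite. Cdkn1a (chr17:29090976-29100727, plus strand) encodes p21, a main target of p53. It had 6 RUNX1 sites near it and 1 assigned, at 29101086 just beyond the 3′ end of the gene. There the fold was 3.36 in the list labelled -DOX and 4.74 in that labelled +DOX, at percentiles 3.25 and 39.9, with the 2 summits 140 bp apart. The sequence holds TTGAGCAA, a C/EBP match, 84 bp to the left of the summit. Most of it is an imperfect repeat, 64.0% identical to itself when shifted by 25 bp, and 38.5% of it was soft-masked in the reference. Reads from a repeat can map to several copies, and their part in this peak, the only one assigned to Cdkn1a in each list, was not tested. No RUNX1 peak was called at the main Cdkn1a promoter in either list. An intronic site at 29095591, already named for its AP-1 match, was nearest to the start of the transcript AC167363.2 and had folds of 4.12 and 4.80. H3K27me3 peaks inside Cdkn1a, 1 in the library titled untreated at percentile 11.3 and 2 in that titled DOX at percentiles 3.73 and 23.1, were likewise nearest to AC167363.2.

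Cdkn1b (chr6:134920401-134925513, plus strand), which encodes p27, had 4 RUNX1 sites near it and no H3K27me3 peak within 50 kb in either library. The assigned site lay 11 bp from the start, with folds of 3.77 in the list labelled -DOX and 4.15 in that labelled +DOX and percentiles of 14.8 and 29.4. A much stronger site stood at 134928432, downstream of the gene and 660 bp from a start of Lockd, a long non-coding RNA next to Cdkn1b. Its folds were 9.77 and 10.8 and its percentiles 94.2 and 96.6. A weaker neighbour at 134927128, also nearest to Lockd, was called solely in the library labelled +DOX, at percentile 54.8. The highest RUNX1 signal in the Cdkn1b window therefore lay by distance at Lockd and not at the Cdkn1b start.

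Cdkn1c (chr7:143458339-143461050, minus strand), the imprinted gene of p57, had no RUNX1 peak within 50 kb in either library. Within that distance, 73.5% of protein-coding genes had a peak of the library labelled -DOX and 75.7% one of that labelled +DOX. It had the largest number of H3K27me3 peaks in its window in the library titled DOX, 11, and 8 in that titled untreated. In the latter 1 peak was assigned to it, in a coding exon at 143460301 with a fold of 6.32 at percentile 90.5. In the library titled DOX 4 were assigned, at 143459412, 143460535, 143460767 and 143465028, with percentiles of 54.8, 63.8, 35.9 and 26.8. A further intronic peak was called in both libraries beside the start of the transcript Gm44732, at percentiles 76.2 and 80.2. Inside the 2.71 kb gene the mark was thus called as 2 peaks in the library titled untreated and 4 in that titled DOX. At least 4 assigned peaks were found for 160 protein-coding genes (0.729%) in the library titled DOX. For the library titled untreated, at least 1 was found for 2919 (13.3%). The intronic peak beside Gm44732 in the list titled untreated overlapped 2 peaks of the list titled DOX. Such counts therefore depend on how the mark was split into peaks.

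**Figure D3:**
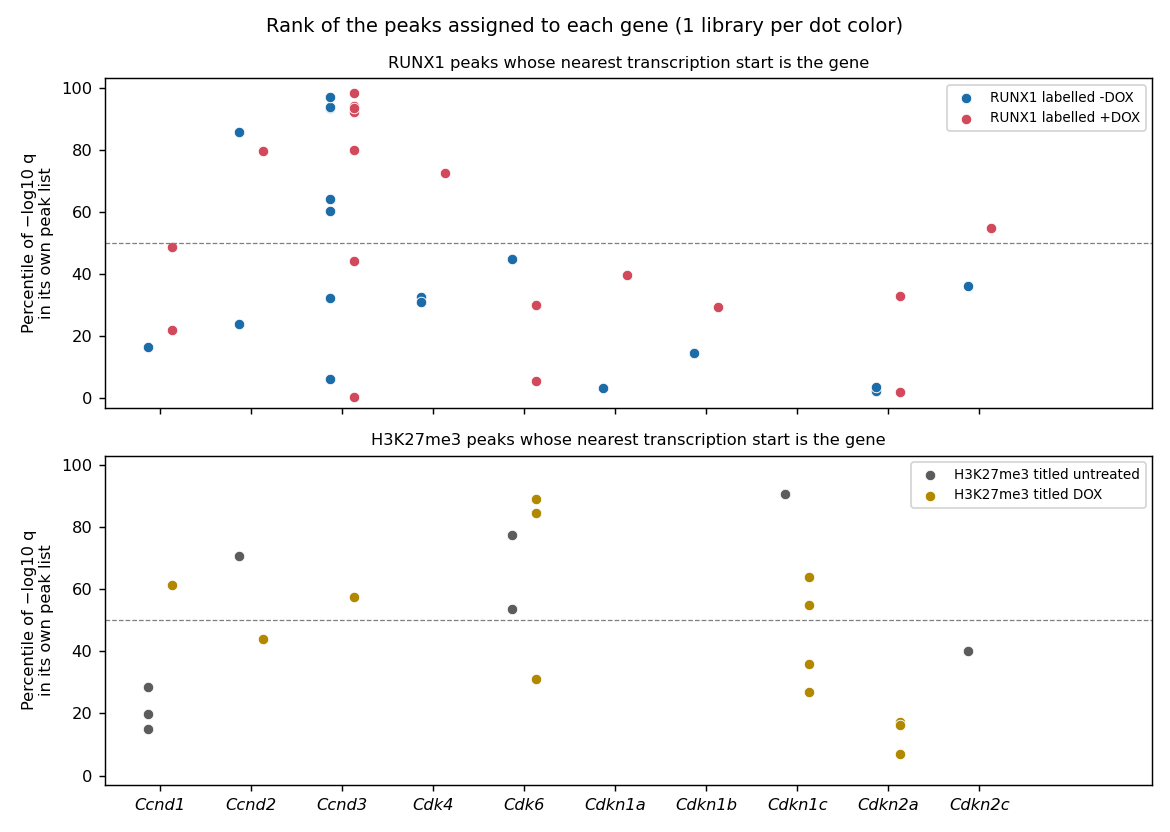
Percentile of -log10 q, in its own list, of every peak assigned to each of the 10 genes, with RUNX1 in the upper panel and H3K27me3 in the lower one. Each dot is 1 peak and the dashed line marks percentile 50. In the upper panel Ccnd3 and Ccnd2 have peaks above percentile 75, and in the lower panel Cdk6 and Cdkn1c do.

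The INK4 genes both had RUNX1 peaks at a start. Cdkn2a (chr4:89274471-89294653, minus strand) encodes p16INK4a and, from an upstream start and another reading frame, p19ARF. All 3 RUNX1 sites near it were assigned to it. The site at the upstream start, 196 bp before it at 89294849, had a fold of 3.60 in the list labelled -DOX and 4.90 in that labelled +DOX, at percentiles 3.86 and 32.9. The summit labelled -DOX lay 237 bp away, inside the untranslated region at 89294612. The GC-rich sequence above, taken at the summit labelled +DOX, has no motif match. The other 2 sites lay in the intron, 451 bp apart, 1 in each list. The one in the library labelled -DOX, at 89285066, had a fold of 3.51 at percentile 2.32. The one in the library labelled +DOX, at 89285517, had a fold of 3.60 at percentile 2.17.

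Both intronic Cdkn2a sites lay in a tandem repeat. The sequence shown for 89285066 holds CAGGAAG 9 times at steps of 23 bp, and it was 95.5% identical to itself when shifted by 46 bp. At 89285517 the same word occurred 7 times, most often 23 bp apart. Of the 200 bp at the former summit, 57.0% was soft-masked in the reference as repeat, which made it the only one of the 51 sites with over 50% masked. Reads from such a repeat can map to several copies, and the part of this in the 2 weak peaks was not tested. Without them Cdkn2a had 1 RUNX1 site, in both lists.

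H3K27me3 at Cdkn2a was called only in the library titled DOX. In that library 3 peaks were assigned to it, at 89282057 in a coding exon and at 89295212 and 89296176 upstream of the gene, with percentiles of 17.4, 7.04 and 16.2. A peak in the neighbouring inhibitor gene Cdkn2b followed at percentile 44.2, and 1 more lay in the Cdkn2a intron next to Gm12606 at percentile 46.5. None of the 5 overlapped anything in the list titled untreated, and all of them were in the lower part of the list.

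Cdkn2c (chr4:109660876-109667189, minus strand), which encodes p18INK4c, had 4 RUNX1 sites near it and 1 assigned, at 109666968 and 221 bp from the start. Its fold was 4.62 in the list labelled -DOX and 5.62 in that labelled +DOX, at percentiles 36.2 and 54.9, with the 2 summits 162 bp apart. An H3K27me3 peak at 109665950 was assigned to it only in the library titled untreated, at percentile 40.2. A peak pair at the Faf1 promoter, 439 bp apart with 1 summit in each RUNX1 list at percentiles 81.4 and 83.1, came out as 2 separate 1-library sites because the 401 bp windows did not meet, although the peaks themselves overlapped.

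Over all 51 sites near the 10 genes, 25 (49.0%) were in both RUNX1 lists, against 56.8% of all RUNX1 sites. Of the others 9 (17.6%) were only in the list labelled -DOX, where the share of all sites was 14.8%, and 17 (33.3%) were only in that labelled +DOX, with 28.4% of all sites. The 9 had percentiles of 0.933 to 81.4 with a median of 23.9, and the 17 had 0.405 to 83.1 with a median of 22.0. Most 1-library sites were thus weak peaks of their list. No peak of the other list overlapped them in 8 of the 9 and 16 of the 17, the Faf1 pair being the exception. Since such sites are those whose summit windows did not meet, little overlap follows largely from the definition. Neither the overlap nor the median percentile was counted over all 1-library sites, so that nothing particular to these genes is read from them.

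For the 25 sites in both lists, the percentile in the library labelled +DOX minus that in the library labelled -DOX ranged from -14.7 to 45.1 with a median of 7.68. It was higher in the library labelled +DOX at 19 sites and lower at 6. All 14177 sites in both lists had a median of 1.83, with -31.6 at the 5th and 41.8 at the 95th percentile of the differences. By this median most of all such sites were also higher in the library labelled +DOX. Their exact share was not counted, so that the counts of higher and lower sites are a description only. A rise of at least 20 points was found at 7 of the 25 sites, against 19.8% of all such sites, and a drop of at least 20 at 0, against 10.9%. Of the 14 assigned sites 11 were higher in the library labelled +DOX, 6 of them by at least 20 points, and the median was 19.2. These 6 were at Ccnd1, at Cdk4, at Cdkn1a, at Cdkn2a and at 2 Ccnd3 introns, and 3 assigned sites, of Ccnd2, Ccnd3 and Cdk6, were lower. At 6 of the 25 sites, 4 of them assigned, the summits of the 2 lists were over 100 bp apart, and 3 of the 6 assigned sites higher by at least 20 points, those of Cdk4, Cdkn1a and Cdkn2a, were among these. Of the other 19 sites, 13 were higher in the library labelled +DOX and 4 by at least 20 points. How often summits lay over 100 bp apart among all sites in both lists was not counted. If the 2 lists are exchanged, as their run names would have it, each of these signs is reversed.

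**Figure D4:**
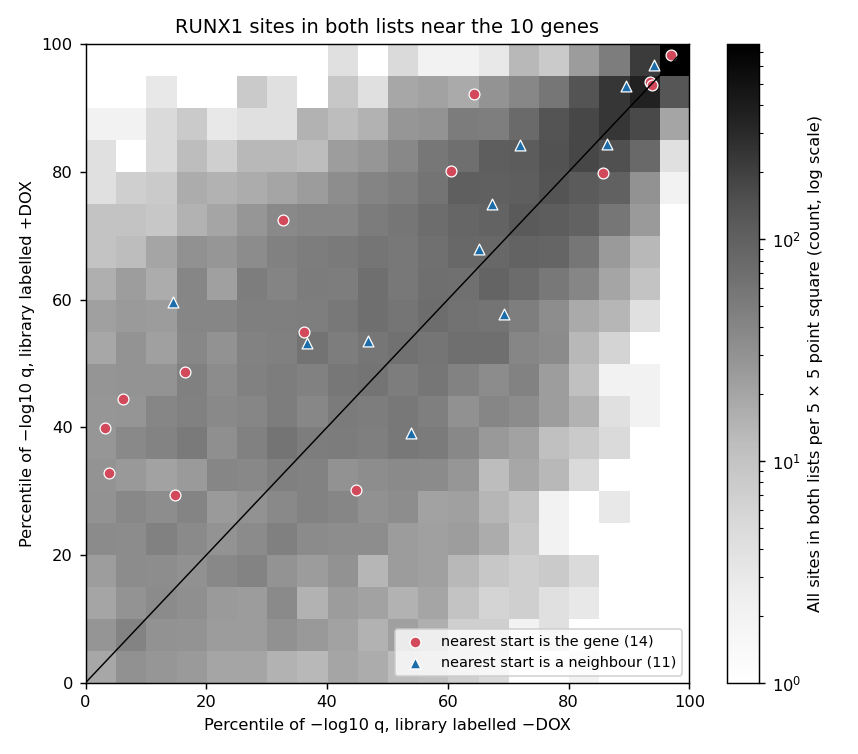
Percentile in the library labelled -DOX (horizontal) against that in the library labelled +DOX (vertical) for the 25 sites in both lists near the 10 genes, with red circles for the 14 assigned sites and blue triangles for the other 11. The grey squares count all 14177 sites in both lists on a log scale. Above the diagonal lie 19 of the 25 points and, by their median difference, most of all the sites.

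The assigned sites spanned nearly the whole range of ranks, and their medians lay below those of all RUNX1 sites. Of the 22, 11 lay within 1500 bp of a start, and their higher percentile of the 2 lists ranged from 5.62 to 98.3 with a median of 32.9, while the median of all RUNX1 sites within that distance was 55.2. For the 11 assigned sites beyond it, 6 of which were those of Ccnd3, the range was 0.405 to 94.1 and the median 44.4, against 45.5 for all sites of that kind. Within 1500 bp of a start of any gene lay 31 of the 51 sites, against 53.9% of all RUNX1 sites.

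The RUNX motif was found at 6 of the 51 sites and at 4 of the 22 assigned ones, and 14.2% of all RUNX1 sites held it. The shorter core was at 21 and 13 sites (37.4% of all sites), ETS words at 13 and 6 (29.9%) and PU.1 at the Ccnd3 site shown above alone (4.66%). GATA was at 4 and 1 (11.7%), C/EBP at 4 and 3 (6.46%), and CRE at none (1.01%). As searched, a PU.1 word and an ETS word cannot match at the same GGAA, and the Ccnd3 site with the PU.1 match held no ETS word. A match is a run of letters and was not tested as a binding site.

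H3K27me3 peaks near the 10 genes numbered 31 in the library titled untreated and 36 in that titled DOX. Of these 21 and 21 overlapped a peak of the other library, which is 67.7% and 58.3%, against 59.9% and 57.1% of all peaks. Within 1500 bp of a start lay 21 of the 31 and 23 of the 36, where 67.8% and 59.5% of all peaks did so. Their widths had medians of 178 and 137 bp. Where a RUNX1 site and an H3K27me3 peak were assigned to the same gene, their summits were mostly separate. The exception was Cdk6, where the summits of the nearest overlapping pair lay 65 bp (titled untreated) and 29 bp (titled DOX) apart. The nearest pairs lay 1291 and 944 bp apart at Ccnd1 and 1610 and 1536 bp at Ccnd2, in the same order. Such distances were not taken over all genes. At Cdkn2a the site at the upstream start lay, by its +DOX labelled summit, 363 bp from the nearest H3K27me3 summit of the library titled DOX, at Cdkn2c the promoter site, likewise, lay 1018 bp from that of the library titled untreated, and at Ccnd3 the intronic site at 47521725 lay 2528 bp from the single peak of the library titled DOX, which had percentile 57.3.

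By the presence of an assigned peak in each of the 4 lists the 10 genes fell into 5 patterns. Ccnd1, Ccnd2 and Cdk6 had one in all 4, as did 977 protein-coding genes (4.45%). Cdk4, Cdkn1a and Cdkn1b had RUNX1 in both lists and no assigned H3K27me3 peak, as did 7197 genes (32.8%). Cdkn1a nevertheless held H3K27me3 peaks inside its body in both libraries, nearest to the start of AC167363.2. Ccnd3 and Cdkn2a had RUNX1 in both and H3K27me3 only in the library titled DOX (288 genes, 1.31%), and Cdkn2c had RUNX1 in both and H3K27me3 only in that titled untreated (204 genes, 0.930%). Cdkn1c had H3K27me3 in both and no RUNX1 (919 genes, 4.19%). These counts include the genes themselves.

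A further list of 22 genes of the G1 to S transition, holding E-type and A-type cyclins, CDK2, the other INK4 inhibitors, the retinoblastoma family, the E2F and DP factors, Cdc25a, Skp2 and Myc, was counted in the same way. RUNX1 peaks were assigned to 19 of the 22 in the library labelled -DOX and to 20 in that labelled +DOX, Ccna2 being the gene added. The shares of all protein-coding genes were 44.2% and 48.0%. The highest percentiles were at Rb1, the retinoblastoma gene, with 95.3 and 95.4. H3K27me3 peaks were assigned to 1 gene in the library titled untreated, E2f8, an atypical repressor E2F, and to 2 in that titled DOX, E2f8 and Cdkn2b. E2f8 was also the only one of the 22 with peaks of both kinds, with top RUNX1 percentiles of 60.7 and 48.1 and H3K27me3 percentiles of 44.5 and 55.2. Skp2, an F-box protein that targets p27 for degradation, had no assigned peak in any of the 4 lists. Thus RUNX1 peaks were assigned to most genes of both lists, and H3K27me3 peaks to 7 of the 10 genes and 2 of the 22 when either library is counted, with 16.5% of protein-coding genes as background.

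**Figure D5:**
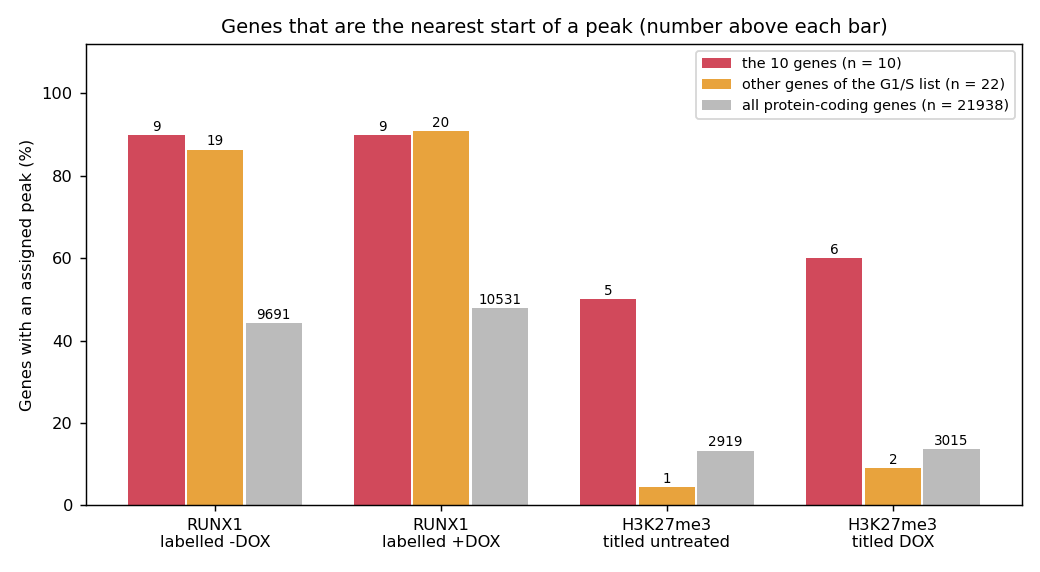
Percent of genes with an assigned peak in each of the 4 libraries, for the 10 genes, the 22 other genes of the G1 to S list and all 21938 protein-coding genes, with the number of genes above each bar. The bars of the 10 genes and the 22 are close for RUNX1 (9 of 10 beside 19 and 20 of 22) and apart for H3K27me3 (5 and 6 of 10 beside 1 and 2 of 22).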

How the data were processed

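The 4 peak lists were used as deposited. According to the methods of the study, the authors used Trimmomatic 0.39 for trimming of the RUNX1 reads, Bowtie2 2.3.5 for alignment to mm10, Picard 2.20.2 against duplicates and MACS2 with q 0.05 for peaks, whereas the submitters' processing notes name Bowtie2 2.2.9 and MACS2 2.1.1. The methods also filter peaks by a blacklist, a repeat list and DNase data, and call differences by the fold change of normalized tag counts. These steps were not repeated here, so that sites called in a single list are not the lost and gained sites of the study. The processing of H3K27me3 and the input control are not given in the sources used here. The deposited columns hold fold enrichment (a ratio) and -log10 p and -log10 q per peak. Peaks were called per library, without replicates, and narrow peak calls split broad H3K27me3 domains. Cells had been crosslinked with disuccinimidyl glutarate and formaldehyde.

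For RUNX1, windows of 200 bp on either side of each summit were joined across both lists. Starts came from GENCODE vM21, and sequences from the RefSeq copy of mm10. Peaks off the main chromosomes were left out (146 to 300 per list). H3K27me3 peaks were said to overlap when they shared at least 1 bp. Scripts ran in Python 3.11.15 with numpy 2.4.6 and recovered the planted answers in simulated data. No test was run. Of genes outside the 10, only those of the G1 to S list with both marks or the highest percentile, and nearest genes of a site, were to be named. Skp2 and Ccna2 were named after their values were seen. Sequences followed the rule stated beside them. The members and lists were chosen with earlier results of these data known. Alternatives changed the window, the -log10 q minimum, the summit extension, the list length, the motif window, repeat masking and the RUNX1 labels. Others used protein-coding starts only or counted overlapping RUNX1 peaks as shared.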

Additional observations from a re-analysis of the deposited data

How the results depend on the processing

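No paired analysis was possible because each condition has 1 library, the labels give no replicate numbers and no result comes from a test. The counts moved mainly with the window and the -log10 q minimum, which by construction change how many peaks can be counted. The cause of the other changes was not tested. With windows of 10 kb and 100 kb in place of 50 kb, the 51 RUNX1 sites near the 10 genes became 30 and 77, and Cdkn1c went from 0 to 4 RUNX1 sites at 100 kb. At 10 kb the sites found in the -DOX labelled list alone fell from 9 to 5, those only in that labelled +DOX from 17 to 8, and the H3K27me3 peaks from 31 to 12 (titled untreated) and from 36 to 19 (titled DOX). A minimum -log10 q of 5 left 5 sites only in the library labelled -DOX and 20 and 16 H3K27me3 peaks. A minimum of 10 left 20 RUNX1 sites, 2 and 5 of them in 1 list only (-DOX before +DOX), 7 of the 22 assigned sites, 3 of the 9 genes with an assigned site, and 7 and 5 H3K27me3 peaks. With lists cut to equal length, 11 sites were in the library labelled +DOX alone, and with the RUNX1 lists exchanged the 2 kinds numbered 17 and 9. A motif window of 100 bp left 1 of 4 GATA sites. With protein-coding starts only, 28 sites in place of 22 were assigned to the 10 genes. With overlapping RUNX1 peaks counted as shared, the 1-library sites numbered 8 (-DOX) and 16 (+DOX). Of 61 alternatives to these counts 41 stayed within 1.5 times the value given and 20 did not. Depth is unknown, so that a peak missing from a list may lie under its threshold.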

Other observations

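Of the 51 RUNX1 sites near the 10 genes, 29 were nearest to another gene and 20 of these lay within 1500 bp of a start. The strongest in the Cdk4 window were at the promoters of Tsfm, a mitochondrial translation factor, and Mettl1, a tRNA methyltransferase. At Tsfm the fold was 8.69 in the list labelled -DOX and 11.6 in that labelled +DOX, and at Mettl1 it was 8.90 and 8.26. The percentiles were 89.5 and 93.5 at Tsfm and 86.3 and 84.3 at Mettl1. The greatest difference between the lists among the 25 sites in both was also in this window, at the promoter of the tetraspanin gene Tspan31, with percentiles of 14.5 and 59.6.

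H3K27me3 in the same windows lay largely at neighbours. In that of Cdk4, all 10 peaks of the library titled untreated and all 7 of that titled DOX were nearest to Cyp27b1, March9 or Agap2, and the March9 peaks had percentiles of 88.8 and 89.6. At Ccnd1 and Ccnd2 the fibroblast growth factor genes Fgf15 and Fgf23 held peaks in both libraries, at percentiles 30.3 and 57.3 for Fgf23. In the Cdkn1c window 3 peaks in each library were nearest to Phlda2, another imprinted gene, at percentiles of 32.3 to 55.9 in the library titled untreated and 19.3 to 58.6 in that titled DOX.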
